A study of Mus musculus with 8 samples.

Results

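The 10 genes described here encode core parts of macroautophagy, the process in which a double membrane closes around cytoplasm and delivers it to the lysosome. They were chosen by name: the 5 ATG8 family genes Map1lc3a, Map1lc3b, Gabarap, Gabarapl1 and Gabarapl2, the receptor gene Sqstm1 (p62), and Ulk1, Becn1, Atg5 and Atg7. All 10 were among the 18768 genes of the deposited count table, and all 10 passed edgeR's filter on low counts, which kept 15153 genes. Their RNA was measured in 4 mouse tumor cell lines. Lines MC010 and MC011 carry the genotype label KO and came from IRF8 knockout mice, and lines MC654 and MC659 carry the label WT and came from C57BL/6 mice. IRF8 is a transcription factor of the interferon regulatory factor family, and the study sequenced these lines to find the genes that it controls in tumor cells. Mice of both genotypes had received methylcholanthrene, a chemical carcinogen, under the skin. The lines, classed as fibrosarcoma, were grown from the resulting tumors through at least 10 passages in culture. There were 2 libraries per line and 4 per label, and the 2 libraries of a line share its origin. The paper does not state whether each line came from a separate tumor or mouse. The ages of the mice, and whether the 2 libraries of a line came from separate cultures, are not given in the sources used here, so the spread between them may be technical.

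Map1lc3a was the member that differed most with the label. Its RNA was higher in the KO-labelled than in the WT-labelled libraries, by 1.85-fold. Gabarapl1 differed most within a label, being 1.77-fold higher in MC010 than in MC011. The other 8 members held a narrow range, with the highest line mean between 1.13 (Gabarap) and 1.44 times (Gabarapl2) the lowest.

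In autophagy, the kinase ULK1 starts the process when nutrients are short, and Beclin 1, the product of Becn1, supports the lipid kinase that marks the forming membrane. ATG7 is the E1-like enzyme that activates the ATG8 proteins and ATG12, and ATG5 is the acceptor of ATG12 in the complex that places ATG8 proteins on phosphatidylethanolamine. The lipidated ATG8 proteins then sit on the membrane and bind receptors such as p62, which carry ubiquitinated cargo and are degraded with it. Most of this control acts on proteins, and an RNA level is not a measure of autophagic flux.

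The ATG8 genes fall into an LC3 subfamily (Map1lc3a, Map1lc3b) and a GABARAP subfamily (Gabarap, Gabarapl1, Gabarapl2). The proteases of the ATG4 family cut each precursor after a glycine near its end, and this glycine is then joined to the lipid. The last 60 coding bases of each gene are shown to make that shared site visible, with the glycine codon in capitals, 5′ to 3′ on the + strand of GRCm38. They lie in the last coding exon, at chr2:155277578-155277637 for Map1lc3a, chr8:121596711-121596770 for Map1lc3b, chr11:69994465-69994524 for Gabarap, chr6:129541108-129541167 for Gabarapl1 and chr8:111952346-111952405 for Gabarapl2.
Map1lc3a: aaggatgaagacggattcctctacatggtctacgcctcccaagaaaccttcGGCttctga
Map1lc3b: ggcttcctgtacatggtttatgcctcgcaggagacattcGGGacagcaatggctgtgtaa
Gabarap: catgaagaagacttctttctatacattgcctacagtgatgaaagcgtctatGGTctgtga
Gabarapl1: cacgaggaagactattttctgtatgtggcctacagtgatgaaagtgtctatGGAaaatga
Gabarapl2: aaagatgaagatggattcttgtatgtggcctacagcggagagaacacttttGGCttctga
1 codon followed the glycine before the stop in 4 of these genes, and 5 codons followed it in Map1lc3b. Over the whole coding sequence Map1lc3a and Map1lc3b were 74.7% identical, and Gabarap and Gabarapl1 were 74.9% identical. Gabarapl2 was 63.1% identical to Gabarap and 64.5% to Gabarapl1, and pairs across the subfamilies were 50.4% to 55.5% identical. These sequences are those of the reference genome and not of the tumor lines.

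The libraries held between 74063616 and 116206078 counts, so that 3 counts, taken as the floor of a library, correspond to between 0.0262 and 0.0408 CPM (counts divided by a library size that edgeR's TMM method had scaled). The lowest count of any member was 1203, for Map1lc3a in library 2 of MC654. Atg7, the least abundant member per kb of exon, had 1437 to 2747 counts per library. Irf8 RNA went against the labels: it had 442 and 347 counts in MC010 and 32 and 10 in MC011, but 1 and 2 in MC654 and 1 and 0 in MC659. PCR of genomic DNA in the study gave the lines the genotypes of their labels, and counts over the whole gene do not show which exons the reads came from. The libraries are named by label, and directions are given by label only. Of 8 mesenchymal markers, Vim stood at 4532 to 7384 CPM in all 8 libraries. Its KO-labelled libraries all lay above the WT-labelled ones (log2 fold change 0.39, adjusted p = 0.0260 in edgeR). Some others differed more between the lines. Fn1 had a mean of 1153 CPM in MC010, 2021 in MC011, 7956 in MC654 and 7991 in MC659. S100a4 had 52.2, 129.0, 19.9 and 20.3 CPM in the same order. Between the labels, 2 of the 8 were called higher and 1 lower, by the call defined below. Of 10 hematopoietic markers, 5 were in the table and summed to between 16.4 and 23.6 CPM, of which Cd14 and Cd68 made the most, and Ptprc was at 0 in MC011. The 4 epithelial markers summed to 565.2 and 530.8 CPM in MC010, 33.3 and 34.7 in MC011, 128.5 and 128.1 in MC654, and 113.6 and 123.2 in MC659. Nearly all of that was Krt8 and Krt18, and Epcam and Cdh1 were at 0 to 1.19 CPM in every library.

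Between the labels, 1 of the 10 members was called higher in the KO-labelled libraries and 0 were called lower, a call being an adjusted p under 0.05 in edgeR's quasi-likelihood test with a log2 fold change above 0.59 in size. Over all genes tested, 13.7% were called higher and 8.72% lower. On the adjusted p alone, 2 of 10 members passed, Map1lc3a and Map1lc3b, both higher, against 37.5% of all genes in either direction, and 5 of 10 members had an unadjusted p under 0.05, as had 7109 of the 15153 genes. DESeq2 also called 1 member higher and 0 lower. For 3 of 10 members (Map1lc3a, Map1lc3b and Gabarap) the 4 libraries of one label all lay above the 4 of the other, against 42.5% of all genes tested. The median log2 fold change was 0.19 over the members and 0.02 over all genes, and the median of its size was 0.25 over the members and 0.36 over all genes. With 10 members these counts lie near the shares over all genes and set the members apart in neither direction. In these bulk cultures, a change in the share of cells with a transcript and a change in its amount per cell cannot be told apart.

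**Figure D1:**
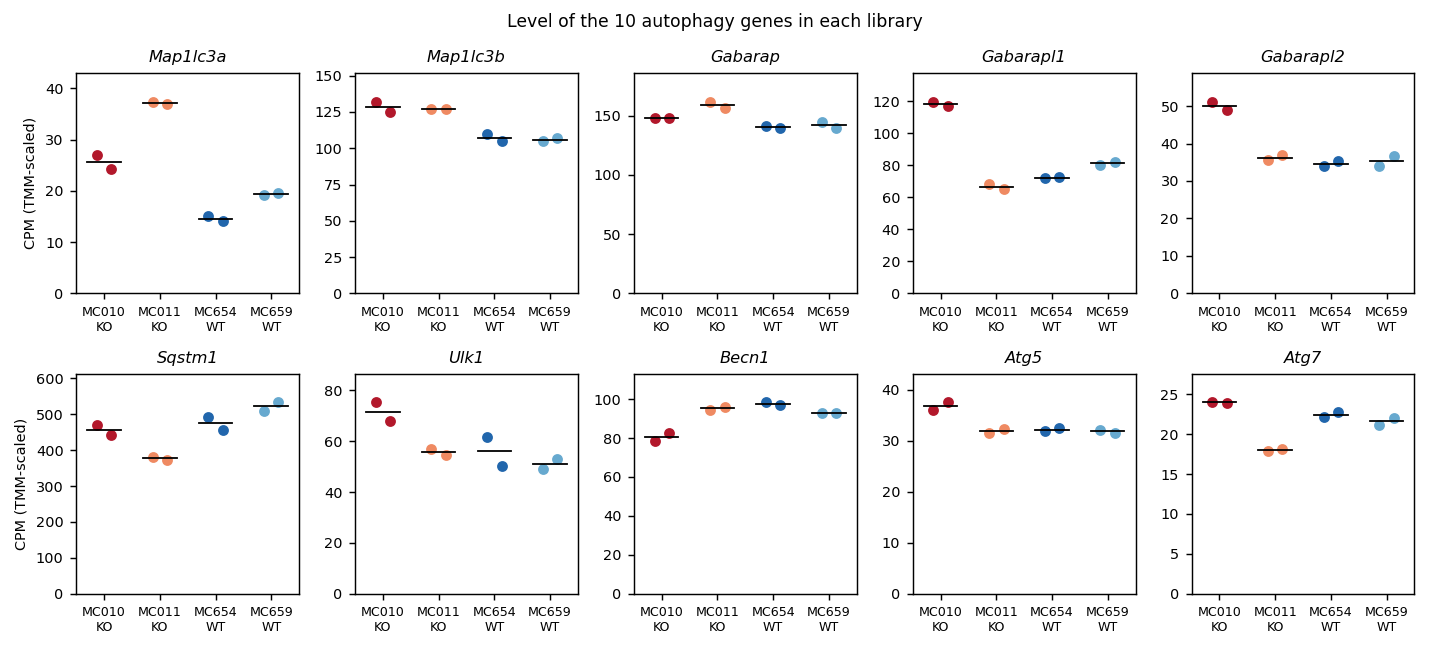
Level of each of the 10 autophagy genes in CPM (TMM-scaled, linear axes from 0) in the 8 libraries, 2 points per line, with a bar at the line's mean. Map1lc3a stood highest in MC011 and lowest in MC654, Gabarapl1 and Gabarapl2 were highest in MC010, and most other members held a similar level in the 4 lines.

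Map1lc3a encodes LC3A, an LC3 subfamily protein, and is annotated at chr2:155276297-155278073, + strand, in GRCm38 (ENSMUSG00000027602). In CPM it had 27.0 and 24.4 in the libraries of MC010, 37.4 and 37.0 in MC011, 15.0 and 14.2 in MC654, and 19.2 and 19.7 in MC659. Both KO-labelled lines lay above both WT-labelled lines, with no overlap. The mean was 31.4 ± 6.72 CPM (SD, n = 4 libraries of 2 lines) with the label KO and 17.0 ± 2.83 CPM (SD, n = 4) with the label WT. The log2 fold change was 0.88 (95% interval 0.47 to 1.30, edgeR's adjusted p = 0.00628). An exact two-sided permutation test over the 4 and 4 libraries gave p = 0.0286, the smallest that it allows, and over 2 and 2 lines no p under 0.333 can be had. The 4 lines were also ordered among themselves, MC011 above MC010, MC659 and MC654, and each neighbouring pair in that order differed. The log2 difference was -0.53 for MC010 minus MC011 (edgeR's adjusted p = 5.57e-06), 0.40 for MC010 minus MC659 (9.51e-05) and -0.41 for MC654 minus MC659 (0.000951). The step between the 2 lines of a label was thus no smaller than the step between MC010 and MC659, which carry different labels. The fold change was not called with the 2 libraries of each line summed (log2 0.90, edgeR's adjusted p = 0.188), with MC654 left out (0.69, adjusted p = 0.0832) or with MC011 left out (0.59, just under the threshold, adjusted p = 0.00503). Map1lc3a was included here with its difference in these libraries already known, so the call is not independent evidence.

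Among the genes whose pattern over the 8 libraries was most like that of Map1lc3a were Cd276, Asrgl1, Slc44a1 and Cavin3. Likeness was measured as the root mean square difference of log2 CPM, each gene centred on its own mean, and was 0.08 for Cd276 and 0.12 for Cavin3. Cd276, which encodes the immune checkpoint molecule B7-H3, stood at 52.6 CPM in MC010, 78.1 in MC011, 31.2 in MC654 and 36.4 in MC659, on average over 2 libraries. None of these 4 was an autophagy gene of the lists used here. The nearest of the other members was Map1lc3b, at 0.39.

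Map1lc3b encodes LC3B, the form most used as a marker of autophagosomes, and lies at chr8:121590361-121598760 on the + strand. It had 131.9 and 125.2 CPM in MC010, 127.0 and 126.9 in MC011, 109.8 and 104.9 in MC654, and 105.0 and 106.9 in MC659. The 4 KO-labelled libraries all lay above the 4 WT-labelled ones, by a small step: the means were 127.7 ± 2.88 CPM (SD, n = 4) and 106.6 ± 2.30 CPM (SD, n = 4). The log2 fold change of 0.26 (95% interval 0.16 to 0.36) had an adjusted p of 0.00247 in edgeR and was under the fold threshold. Unlike Map1lc3a, it did not separate the lines of a label, with a log2 difference of 0.02 for MC010 minus MC011 (95% interval -0.08 to 0.12) and of 0.02 for MC654 minus MC659 (-0.08 to 0.12). Its adjusted p was above 0.05 in edgeR's fit on the sums per line (0.231), with the line as a random block (0.122 by limma-voom) and in edgeR's fit without MC659 (0.0579). Map1lc3b has processed copies that are 96.5% to 99.7% identical over at least 360 bases. Of these Gm6055, with 29 to 62 counts, was in the table, so some reads could be shared. Map1lc3b also shares 58 bases of exon with Zcchc14 on the other strand, which had 8967 to 14411 counts.

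Gabarap encodes the founding GABARAP protein, at chr11:69991143-69994951 on the + strand, and varied least of the members. It had 147.8 and 147.8 CPM in MC010, 161.5 and 156.2 in MC011, 140.8 and 139.2 in MC654, and 144.5 and 139.3 in MC659. The 4 KO-labelled libraries lay above the others, but the log2 fold change was 0.12 (95% interval 0.01 to 0.23), with an adjusted p of 0.0849 in edgeR.

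Gabarapl1 encodes a close relative of GABARAP, at chr6:129533160-129542346 on the + strand, and separated the 2 KO-labelled lines. It had 119.5 and 117.1 CPM in MC010, 68.1 and 65.3 in MC011, 72.1 and 72.5 in MC654, and 80.4 and 82.1 in MC659. The 2 libraries of MC010 stood above the other 6, and those of MC011 were the lowest of all, so that the WT-labelled lines lay between the KO-labelled ones. MC010 exceeded MC011 by 0.83 on the log2 scale (95% interval 0.72 to 0.93, edgeR's adjusted p = 5.82e-10), MC654 by 0.71 (adjusted p = 2.64e-09) and MC659 by 0.54 (6.07e-08), the last under the fold threshold. Between the labels the means were 92.5 ± 29.8 CPM (SD, n = 4) and 76.8 ± 5.21 CPM (SD, n = 4), and the log2 fold change of 0.27 did not pass (95% interval -0.22 to 0.76, adjusted p = 0.359). The sign of the label difference depended on the line: without MC011 it was 0.62 (adjusted p = 2.03e-05, called), and without MC010 it was -0.22 (adjusted p = 0.0147). A gene on the other strand, 1700101I11Rik, shares 570 bases of exon with Gabarapl1 and had 7 to 38 counts.

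Gabarapl2 encodes GATE-16, at chr8:111940703-111953612 on the + strand, and also stood apart in MC010. It had 51.1 and 48.9 CPM in MC010, 35.5 and 36.9 in MC011, 33.9 and 35.4 in MC654, and 33.9 and 36.7 in MC659. The libraries of the other 3 lines lay between 33.9 and 36.9 CPM. MC010 was higher than MC011 by 0.47 (edgeR's adjusted p = 7.08e-06), than MC654 by 0.53 (1.53e-06) and than MC659 by 0.50 (2.57e-06) on the log2 scale, all under the fold threshold. Between the labels the log2 fold change was 0.30 (95% interval 0.01 to 0.60, adjusted p = 0.0994). The summed epithelial markers, nearly all Krt8 and Krt18, were also highest in MC010. Epcam and Cdh1, at low levels, were instead highest in MC011. The part of these markers in the levels of Gabarapl1 and Gabarapl2 was not tested. Near-identical processed copies of Gabarapl2 exist, of which Gm3724, 99.4% identical over 349 bases, had 5 to 22 counts.

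**Figure D2:**
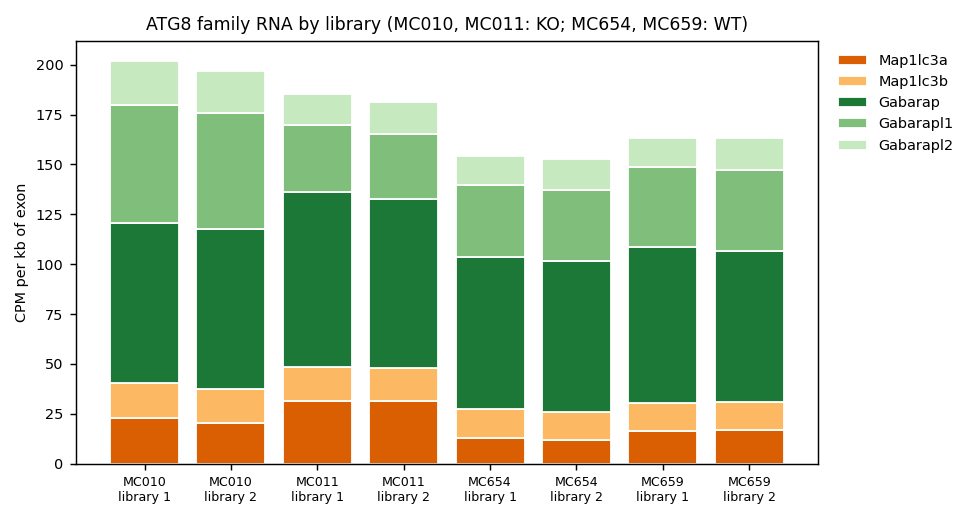
Summed level of the 5 ATG8 genes in each library, as CPM per kb of exon (linear axis from 0), stacked by gene. The sum ran from 152.6 in MC654 to 201.9 in MC010, Gabarap was the largest portion in every library, and the Gabarapl1 portion was largest in MC010 and the Map1lc3a portion in MC011.

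To compare levels between genes, CPM was divided by the length of all annotated exons of the gene in kb. By this level per length Gabarap led the family, with a mean of 79.8 CPM per kb over the 8 libraries, followed by Gabarapl1 at 42.0, Map1lc3a at 20.5, Gabarapl2 at 16.8 and Map1lc3b at 15.6. The order after Gabarap rests on the annotated lengths, 7517 bases for Map1lc3b, 2013 for Gabarapl1 and 1181 for Map1lc3a. In CPM, Map1lc3b stood above Gabarapl1 in every line, with means of 127.7 against 92.5 with the label KO. With the label WT they were 106.6 against 76.8. The sums and shares given next rest on the same lengths. The 5 genes together reached 201.9 and 196.6 CPM per kb in MC010, 185.2 and 181.2 in MC011, 154.1 and 152.6 in MC654, and 163.1 and 163.0 in MC659. All 4 KO-labelled libraries lay above the WT-labelled ones in this sum. Map1lc3a, Map1lc3b and Gabarap stood above both WT-labelled lines in MC010 and in MC011, and Gabarapl1 only in MC010. Gabarapl2 was at 21.5 CPM per kb in MC010 and 15.6 in MC011, against 14.9 in MC654 and 15.2 in MC659. Gabarapl1 was 29.5% of the sum in MC010 but 18.1% in MC011, where it was lowest. Map1lc3a was 10.9% in MC010, 17.2% in MC011, 8.05% in MC654 and 10.1% in MC659. Gabarap made up 40.2% in MC010 and between 47.0% and 49.5% in the other lines. Map1lc3b held between 8.58% and 9.31% throughout.

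Sqstm1 encodes p62, which binds ubiquitin and ATG8 proteins and is itself a target of autophagy. It lies at chr11:50199366-50210827 on the - strand and was the most abundant member, at 136.3 CPM per kb on average, above 98.2% of the genes tested. On the other strand Mrnip, with 331 to 781 counts, shares 580 bases of exon with it. Sqstm1 had 470.8 and 441.4 CPM in MC010, 380.4 and 373.7 in MC011, 492.6 and 456.7 in MC654, and 510.3 and 533.4 in MC659. MC011 was lowest and MC659 highest, and MC010 overlapped MC654. The means were 416.6 ± 47.3 CPM (SD, n = 4) with the label KO and 498.2 ± 32.4 CPM (SD, n = 4) with the label WT, a log2 fold change of -0.26 (95% interval -0.47 to -0.05, edgeR's adjusted p = 0.0550). The adjusted p was under 0.05 in DESeq2 (0.0312), with upper-quartile scaling (0.0446), without MC010 (log2 fold change -0.42, adjusted p = 0.000173) and without library 1 of MC010 (0.0248). Without MC011 the log2 fold change was -0.14 (adjusted p = 0.0880), and with sums per line the adjusted p was 0.423. In the order MC659, MC654, MC010 and MC011, the last 2 differed (log2 difference of MC010 minus MC011 0.27, edgeR's adjusted p = 0.000161), while for MC654 minus MC659 (-0.14, adjusted p = 0.0790) and MC010 minus MC654 (-0.06, adjusted p = 0.321) the test did not pass.

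Of the genes that start autophagosome formation, Ulk1 lies at chr5:110784488-110810097 and Becn1 at chr11:101285952-101302286, both on the - strand. Ulk1 had 75.3 and 68.0 CPM in MC010, 56.7 and 54.5 in MC011, 61.6 and 50.3 in MC654, and 49.2 and 52.8 in MC659. MC010 was again highest, by 0.37 on the log2 scale against MC011 (edgeR's adjusted p = 0.000949), and the libraries of the other 3 lines lay between 49.2 and 61.6 CPM. Becn1 had 78.3 and 82.6 CPM in MC010, 94.2 and 96.2 in MC011, 98.4 and 96.8 in MC654, and 93.0 and 93.0 in MC659. It ran the other way, with MC010 lowest, by 0.24 below MC011 (log2 difference of MC010 minus MC011 -0.24, adjusted p = 0.000355). Between the labels the log2 fold change was 0.25 for Ulk1 (95% interval -0.03 to 0.53, adjusted p = 0.144) and -0.12 for Becn1 (-0.29 to 0.06, adjusted p = 0.259). Becn1 shares 3104 bases of exon with Cntd1 on the other strand, which had 12 to 75 counts.

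Of the conjugation genes, Atg5 lies at chr10:44268358-44364291 and Atg7 at chr6:114643097-114860614, both on the + strand. Atg5 had 36.0 and 37.6 CPM in MC010, 31.6 and 32.3 in MC011, 31.9 and 32.5 in MC654, and 32.1 and 31.6 in MC659. MC010 was higher than MC011 by 0.20 on the log2 scale (edgeR's adjusted p = 0.00637), and the other 3 lines overlapped. Atg7, the least abundant member at 3.09 CPM per kb, had 24.0 and 24.0 CPM in MC010, 18.0 and 18.2 in MC011, 22.2 and 22.7 in MC654, and 21.2 and 22.1 in MC659. MC011 was lowest, with a log2 difference of 0.41 for MC010 minus MC011 (adjusted p = 5.16e-05) and of -0.31 for MC011 minus MC654 (adjusted p = 0.000672). Between the labels the log2 fold change was 0.10 for Atg5 (95% interval -0.06 to 0.27, adjusted p = 0.296) and -0.07 for Atg7 (-0.34 to 0.20, adjusted p = 0.688).

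**Figure D3:**
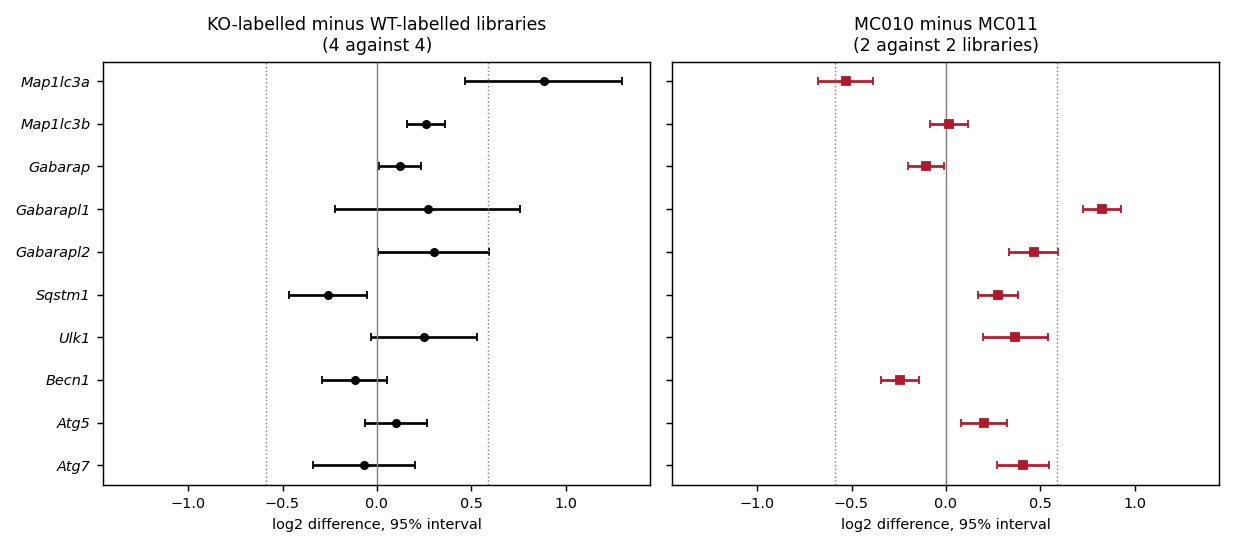
Log2 difference of each member with its 95% interval between the 4 KO-labelled and 4 WT-labelled libraries (left) and between the KO-labelled lines MC010 and MC011, 2 libraries each (right), with dotted lines at the fold threshold of 0.59. Map1lc3a lies past the threshold on the left and Gabarapl1 on the right.

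Line against line, the members' differences were smaller in the median than those of all genes in each of the 6 contrasts. By level per kb the members stood above 44.1% (Atg7) to 98.2% (Sqstm1) of the genes tested, and no comparison with genes of like abundance was made. These contrasts rest on the spread between the 2 libraries of a line, and contrasts that share a line share its libraries. On the adjusted p alone, edgeR passed 7 of 10 members between MC010 and MC654 (66.7% of all genes tested), 8 between MC010 and MC659 (67.9%), 6 between MC011 and MC654 (60.9%), 6 between MC011 and MC659 (61.4%), 8 between MC010 and MC011 (63%) and 2 between MC654 and MC659 (14.5%). With the fold threshold, Map1lc3a and Gabarapl1 were called between MC010 and MC654, where 35.9% of all genes were called in either direction. None was called between MC010 and MC659 by edgeR or DESeq2, against 36.8% of all genes. Map1lc3a was called between MC011 and MC654 (log2 difference 1.35, 29.7% of all genes called) and between MC011 and MC659 (0.93, 30.3%). Gabarapl1 was called between MC010 and MC011, where 31.6% of all genes were. No member was called between MC654 and MC659 by either tool, against 4.95% of all genes. The median size of the members' log2 difference was 0.32 between MC010 and MC011 and 0.06 between MC654 and MC659, against 0.42 and 0.13 over all genes. Over the 4 line means the median range of log2 CPM was 0.44 for the members and 0.76 for all genes tested, and 8 of 10 members had a range under the latter.

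Promoter sequence was at hand for 8 of the 10 genes, as the 250 bases before and 50 after a RefSeq start site (GRCm38.p6), Map1lc3a and Becn1 being the exceptions. Both strands were searched for 5 motifs: the E-box CACGTG, the core of CLEAR elements bound by TFEB (in 7.15% of 32851 promoters of 300 bases), the antioxidant response core TGACNNNGC (12.4%), the ETS-IRF composite element to which IRF8 binds with a partner, written as GGAA and GAAA with 2 bases between (2.72%), the IRF element, written as GAAA repeated after 2 bases (3.44%) and the amino acid response element TTGCATCA (0.895%). The 2 IRF patterns share letters and can overlap. Matches were found in 3 of the 8 genes. Map1lc3b had TGACNNNGC starting 4 bases after the start site, and Atg7 had CACGTG beginning 132 bases before a start site within its annotated span. Atg5 held both CACGTG, 14 bases before the start site, and the ETS-IRF composite element, 247 bases before it. Its 250 upstream bases, at chr10:44268089-44268338 on the + strand, are shown with both matches in capitals because this was the only one of the 8 windows with an IRF pattern.
Atg5: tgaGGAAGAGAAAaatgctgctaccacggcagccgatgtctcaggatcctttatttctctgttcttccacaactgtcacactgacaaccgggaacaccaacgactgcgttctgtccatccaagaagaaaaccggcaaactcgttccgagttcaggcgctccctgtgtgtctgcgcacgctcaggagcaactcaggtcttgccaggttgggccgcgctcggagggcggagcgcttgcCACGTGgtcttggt
A match describes letters only, and the label difference of Atg5 did not pass the test (adjusted p = 0.296 in edgeR).

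The other genes of the pathway were taken from 8 lists with 73 genes, of which 68 were in the table and all of these were tested. Wdr45, Atg4a, Fundc1, Tfe3 and Lamp2 were not in the table, which is not evidence that their RNA was absent. Between the labels 4 were called higher (5.88%, against 13.7% of all genes) and 8 lower (11.8%, against 8.72%), and the median log2 fold change was 0.02. Among partners of ULK1, 1 of 4 was called: Atg101 had 25.1 to 28.9 CPM in the KO-labelled and 13.2 to 17.5 CPM in the WT-labelled libraries (log2 fold change 0.84, edgeR's adjusted p = 0.000568). Among genes of the Beclin 1 lipid kinase complexes, 1 of 7 was called, Atg14, whose product directs the kinase to autophagosome formation, with 20.5 ± 0.661 CPM (SD, n = 4) against 13.5 ± 1.05 (0.61, adjusted p = 0.000935). Of 9 genes for ATG9, lipid transfer and WIPI proteins, 3 were called, all lower. Atg2b, which encodes a lipid transfer protein that feeds the growing membrane, had 63.6 ± 5.51 CPM (SD, n = 4) with the label KO and 131.3 ± 5.29 CPM (SD, n = 4) with the label WT (log2 fold change -1.05, adjusted p = 3.8e-05). The scramblase genes Vmp1 (144.4 against 244.2 CPM, log2 fold change -0.76) and Tmem41b (33.9 against 55.0 CPM, -0.70) were the others. Atg2a, of the same list, had the other sign and was not called. It had 62.2 ± 20.2 CPM (SD, n = 4) against 44.0 ± 3.09 CPM (log2 fold change 0.50, edgeR's adjusted p = 0.106), with MC010 highest.

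In the ATG8 conjugation and processing list, 1 of 8 genes was called in each direction. Atg3, which encodes the E2-like enzyme that takes ATG8 proteins from ATG7, had 31.9 and 32.3 CPM in MC010, 35.9 and 34.2 in MC011, 49.6 and 53.1 in MC654, and 53.0 and 50.5 in MC659. The 2 labels were well apart and the lines within each were close (log2 fold change -0.62, 95% interval -0.76 to -0.48, edgeR's adjusted p = 0.000195), whereas Atg7 and Atg5, which act beside it, did not pass the test. Atg16l2, a paralog of the Atg16l1 scaffold, was called higher (0.74, adjusted p = 0.0492), but with 11.5 and 10.8 CPM in MC010 and 5.66 to 6.65 CPM in MC011 against 4.48 to 5.97 CPM in the WT-labelled libraries, its 2 labels overlapped.

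Of 11 receptor genes beside Sqstm1, 1 was called in each direction, and both serve mitophagy among other roles. Optn, which encodes the ubiquitin-binding receptor optineurin, had 7.06 and 6.83 CPM in MC010, 9.74 and 9.18 in MC011, 1.38 and 1.86 in MC654, and 2.56 and 2.11 in MC659. Its log2 fold change of 2.05 (95% interval 1.52 to 2.58, edgeR's adjusted p = 0.000375) exceeded that of every member. Bnip3, which encodes a mitochondrial receptor known for its induction in hypoxia, had 46.0 ± 7.98 CPM (SD, n = 4) with the label KO and 116.2 ± 9.18 CPM (SD, n = 4) with the label WT (log2 fold change -1.34, adjusted p = 0.000173). Its relative Bnip3l had 106.5 and 116.8 CPM on average, a difference that did not pass (-0.13, adjusted p = 0.168).

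Of 12 upstream regulators, 3 were called and all 3 were lower in the KO-labelled libraries. Ddit4 (REDD1) and Sesn2 (sestrin 2), stress-induced inhibitors of the growth kinase mTORC1, had log2 fold changes of -1.87 (95% interval -2.49 to -1.25) and -1.56 (-1.89 to -1.23), with adjusted p of 0.00126 and 0.000144 in edgeR. Ddit4 had 8.50 and 7.88 CPM in MC010, 17.9 and 14.4 in MC011, 44.1 and 37.8 in MC654, and 47.6 and 48.2 in MC659, so that the KO-labelled lines also differed from each other. Sesn2 ranged from 11.3 to 17.3 CPM with the label KO and from 39.5 to 46.0 CPM with the label WT. Prkaa2, which encodes a catalytic subunit of the energy sensor AMPK, had 1.76 ± 0.684 CPM (SD, n = 4) against 4.58 ± 0.260 CPM (log2 fold change -1.38, adjusted p = 0.00631). Prkaa1, for the other catalytic subunit, was far more abundant and not lower. It had 134.0 ± 6.48 CPM (SD, n = 4) against 120.6 ± 3.93 CPM (log2 fold change 0.15, edgeR's adjusted p = 0.0560). None of the 6 autophagosome fusion genes and none of the 11 lysosome genes was called. Over all genes tested 13.7% were called higher and 8.72% lower, and lists of 6, 11 or 12 genes are short to set against these shares. The lysosomal membrane gene Lamp1 had 636.6 ± 66.6 CPM (SD, n = 4) and 655.3 ± 19.96 CPM (SD, n = 4), differing by a log2 fold change of -0.04 with an adjusted p of 0.716. With the 2 libraries of each line summed, 0 of the 68 genes were called, as of all genes tested, while 3658 of all genes had an unadjusted p under 0.05. In place of 4, 2 were called higher with MC010 or MC654 left out and without either library of MC654 alone, and 6 with MC011 left out, 5 without its library 1 and 6 without its library 2.

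**Figure D4:**
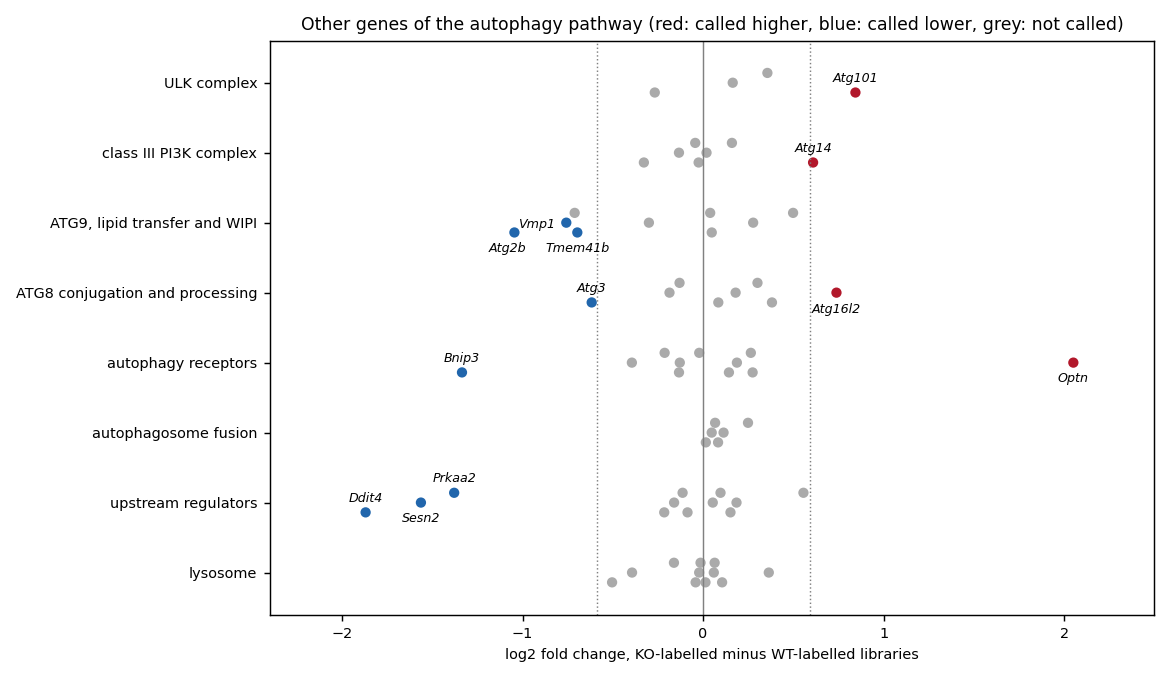
Log2 fold change of the 68 tested pathway genes between the KO-labelled and WT-labelled libraries, 1 point per gene in rows by list, with dotted lines at the fold threshold of 0.59. The 4 genes called higher and 8 called lower are named, among them Optn at 2.05 and Ddit4 at -1.87, and all points of the fusion and lysosome rows lie inside the threshold.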

How the data were processed

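RNA of 8 libraries from 4 tumor cell lines was sequenced with a stranded mRNA protocol. The authors aligned the reads to mm10 (GRCm38.p6) with STAR (2.7.3a in the submitters' processing notes), counted them per gene with HTSeq (0.11.2) and deposited raw counts per gene and library. Whether strand was used in counting is not given in the sources used here. The table also holds counts scaled by size factors and the authors' own DESeq2 comparison, neither of which was used. Every gene in it had at least 20 counts in all. Sex chromosome genes were not analysed here.

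The raw counts were compared in edgeR 4.0.16 (R 4.3.3): filterByExpr by label, TMM scaling, robust quasi-likelihood fit with the label as the only term, and Benjamini-Hochberg adjustment over all 15153 genes tested. A second fit with 1 group per line gave the 6 line contrasts. Intervals used a standard error taken as the log2 fold change over the square root of F. The 2 libraries of a line share an origin, so alternatives included sums per line and limma-voom (3.58.1) with the line as a random block. Others were DESeq2 1.42.0, upper-quartile scaling, no filter, the library number as a block, and each library or line left out. The fits were run on simulated counts. For the label comparison these held no spread between the lines of a label, so they do not check its p-values against that spread. Exon lengths came from the GENCODE annotation of GRCm38, in which 94.4% of the table's genes had the same coordinates. Floors cover counting error only. The members, gene lists, motifs and tests were chosen with earlier results of these data known. Named genes were the 10 members, each pathway gene called between the labels, genes named for a role, and the 5 genes most like Map1lc3a, of which 1 item is not reported here.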

Additional observations from a re-analysis of the deposited data

Results flagged for a closer look

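Gabarapl1 was singled out because the 2 KO-labelled lines differed in it when set against the same WT-labelled libraries. The log2 difference of MC010 minus MC011 was 0.83 (95% interval 0.72 to 0.93, edgeR's adjusted p = 5.82e-10, 2 against 2 libraries), with both libraries of MC010 above and both of MC011 below all 4 WT-labelled libraries. No library stood far from the rest of its label in any of the 20 groups of 4 looked at (10 members in 2 labels).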

How the results depend on the processing

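Map1lc3a kept its direction in 18 of 18 alternatives and its call in 15, including all 8 fits with a library left out (edgeR's adjusted p 0.00420 to 0.0233). With sums per line, 0 members and 0 pathway genes were called higher and 0 pathway genes lower, and the value of Map1lc3a was 0.90. With MC654 left out, 0 members and 2 pathway genes were called higher (Map1lc3a 0.69), with MC010 left out 2 pathway genes, and with MC011 left out Map1lc3a was at 0.59 and Gabarapl1 was called at 0.62. Upper-quartile scaling gave 2 pathway genes called higher. With no threshold on the fold change, 2 members and 12 pathway genes were higher, and 7, 8, 6, 6, 8 and 2 members passed in MC010 against MC654, MC010 against MC659, MC011 against MC654, MC011 against MC659, MC010 against MC011 and MC654 against MC659. Leaving out 1 library at a time gave 2 to 6 pathway genes higher (6 without library 2 of MC011), and 1 to 2 members called between MC010 and MC011, the 2 without library 1 of MC010. The cause was not tested. Library numbers do not pair the samples: the deviations of same-numbered libraries correlated between -0.03 and 0.06 across lines, and with the replicate block 1917 genes were higher and 1189 lower, in place of 2083 and 1321, with 1 member called. The voom fit, whose consensus correlation of libraries within a line was 0.828, passed 1 member on the adjusted p. That value is 1 estimate shared by all genes in the block model and not the correlation between the levels of 2 libraries.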

Other observations

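The chromosomal neighbours of the 2 members that differed most give further values. Of the genes tested, 12 lay within 1 Mb of Gabarapl1, and their median log2 difference of MC010 minus MC011 was -0.86, opposite in sign to the 0.83 of Gabarapl1 itself, with 2 called higher and 6 lower in MC010. Within 1 Mb of Map1lc3a lay 39 genes with a median log2 fold change of 0.16 between the labels, against 0.88 for Map1lc3a and 0.02 over all genes tested. Within 1 Mb of Gabarapl2 lay 21 genes with a median log2 difference of MC010 minus MC011 of 0.08, against 0.47 for Gabarapl2. Genes near each other are not independent, and no test was made.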
